A study of Mus musculus with 18 samples.

Results

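Falcor is a long non-coding RNA, listed in the annotation as 9030622O22Rik, that is transcribed beside Foxa2, the gene for a forkhead transcription factor of the lung epithelium. The comparison described here sets 5 Falcor-/- libraries (replicates 6 to 10) against 5 wild-type libraries (replicates 1 to 5), which are 10 of the 18 RNA-seq libraries of the series. They were chosen by their genotype labels. The other libraries, 4 Foxa2+/- and 4 double-heterozygous (Falcor+/-;Foxa2+/-), shared the estimate of spread and were used for direct contrasts with Falcor-/-. The design text gives an age of 10 to 12 weeks for the wild-type animals and none for the mutants. RNA came from lung cells captured on magnetic beads through the surface protein EpCAM. The deleted part of Falcor, the strain, the sex, whether litter mates were compared, and whether each library came from its own animal were not stated in the sources used, so p-values measure only the spread between these libraries.

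Foxa2 and its relative Foxa1 bind closed chromatin and hold open the enhancers of secretory, alveolar and ciliated cell genes in the lung epithelium. Long non-coding RNAs encoded beside such factors have been studied as regulators of their neighbours. In a deletion of one of them, the target transcript, the neighbouring gene and the genes that the factor serves are therefore the first to be read.

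The RefSeq starts of Falcor and Foxa2 (GRCm38.p6) lie 6456 bases apart on the minus strand of chromosome 2. The 250 bases before each start, and those before the start of Aass, the gene with the largest rise among the 24 leading genes described below, were searched for the forkhead-type letters TGTTTAC and GTAAACA, which are each other's reverse complement. They are shown because Falcor is the deleted gene, Foxa2 the neighbour in question, and Aass the most displaced of the leading genes. None of the 3 windows held an exact match, so no letters stand in capitals. Variants of these letters were not searched for.
Falcor (9030622O22Rik), chr2:148040514-148040763, minus strand: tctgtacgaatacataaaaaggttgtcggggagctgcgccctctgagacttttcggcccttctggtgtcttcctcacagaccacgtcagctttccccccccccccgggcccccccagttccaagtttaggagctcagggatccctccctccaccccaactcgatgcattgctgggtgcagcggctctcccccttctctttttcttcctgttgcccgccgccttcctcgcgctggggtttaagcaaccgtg
Foxa2, chr2:148046970-148047219, minus strand: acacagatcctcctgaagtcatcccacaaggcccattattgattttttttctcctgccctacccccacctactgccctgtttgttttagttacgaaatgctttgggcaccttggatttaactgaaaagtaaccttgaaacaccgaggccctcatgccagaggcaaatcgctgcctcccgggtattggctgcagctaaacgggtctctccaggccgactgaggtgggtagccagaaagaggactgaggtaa
Aass, chr6:23132987-23133236, minus strand: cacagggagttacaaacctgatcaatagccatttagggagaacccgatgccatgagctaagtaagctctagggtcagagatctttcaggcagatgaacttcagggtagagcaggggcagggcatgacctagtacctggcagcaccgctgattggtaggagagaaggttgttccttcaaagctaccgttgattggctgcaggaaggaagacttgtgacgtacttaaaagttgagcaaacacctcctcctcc
Over the 11131 tested genes with such a window, 244 (2.19%) held the letters. Of the genes higher in Falcor-/-, 6 of 568 did (1.06%), and of those lower, 16 of 459 (3.49%).

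The Falcor transcript checked the labels of the Falcor-/- and wild-type libraries. Its deposited log2 levels were 10.72, 10.21, 9.68, 9.71 and 10.59 in the wild-type libraries and 6.13, 5.39, 6.01, 7.27 and 6.23 in the Falcor-/- libraries. Every Falcor-/- library lay below every wild-type library, and replicate 9 kept the highest remaining level. The difference was -3.98 on the log2 scale (SE 0.27, limma adjusted p = 6.35e-07).

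Foxa2 was measured at 12.94, 12.99, 13.03, 13.03 and 12.83 in wild type and at 12.85, 12.58, 12.99, 12.83 and 12.42 in Falcor-/-. The groups overlapped: replicates 6, 8 and 9 lay within or at the edge of the wild-type range, and replicates 7 and 10 below it. The mean difference of -0.23 (SE 0.10) did not pass the test (limma adjusted p = 0.115, exact permutation p = 0.0794). Leaving out 1 library at a time gave differences between -0.29 and -0.15, the smallest without Falcor-/- replicate 10. With library weights the difference was -0.27 (adjusted p = 0.0485), and once a trend with gene length was taken out of each library, as described below, it was -0.39 (adjusted p = 0.0156). Foxa2 has 2370 exonic bases and belongs to a length bin whose genes had a median difference of 0.15. Set directly against the other mutants, the Falcor-/- libraries held 0.34 more Foxa2 than the Foxa2+/- libraries (adjusted p = 0.0353) and 0.37 more than the double-heterozygous libraries (adjusted p = 0.0464). The forkhead relatives Foxa1 (difference 0.03, adjusted p = 0.852) and Foxa3 (-0.22, adjusted p = 0.61), looked up after other values were seen, did not pass.

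**Figure D1:**
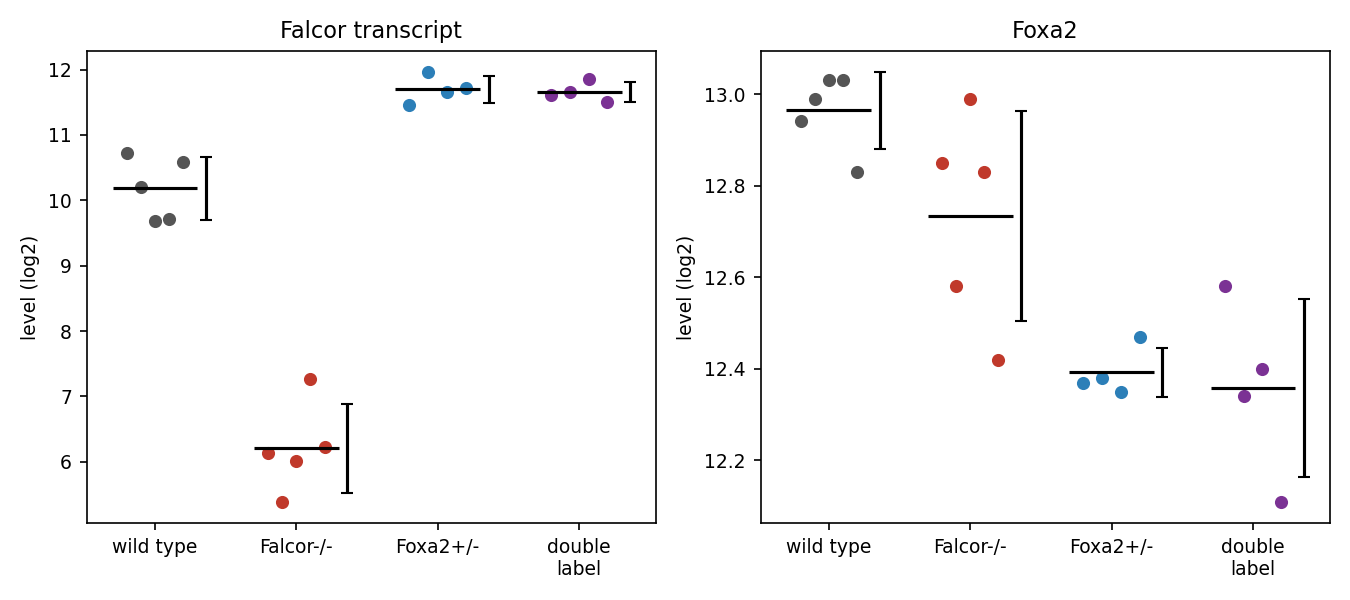
Deposited log2 level (vertical axis) of the Falcor transcript, left, and of Foxa2, right, in each library (points) of wild type, Falcor-/-, Foxa2+/- and the double-heterozygous genotype ("double label"); bars are means and whiskers are SD. The Falcor-/- libraries lie below all others for Falcor (5.39 to 7.27), while for Foxa2 they spread from 12.42 to 12.99 and reach into the wild-type range of 12.83 to 13.03.

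Of 15249 genes tested, 1444 passed at an adjusted p under 0.05 (9.47%), 797 of them higher (5.23%) and 647 lower (4.24%) in Falcor-/-. A difference of at least 1 log2 unit was reached by 286 (1.88%). The median difference over all genes was 0.03. Dropping wild-type replicate 1 left 354 changed genes, and dropping Falcor-/- replicate 7 gave 3926. Leading genes were therefore taken as the 12 rises and 12 falls with the smallest p whose groups do not overlap and differ by at least 0.5. Groups failed to overlap for 644 genes in the higher direction (4.22%) and 352 in the lower (2.31%), with no test.

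Each of these 24 genes passed in all 10 runs that left out a library and after removal of the length trend. The 24 were chosen for small p and separate groups in these same libraries, so these passes are no independent support. With the mean of interstitial macrophage genes as a covariate, none of the 24 passed (adjusted p from 0.0636 to 0.298), though all 24 kept their direction; that mean itself differs between the genotypes. With the mean of endothelial genes as a covariate 23 passed, all but Prkce (adjusted p = 0.0767).

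Among the rises, Aass, which encodes the enzyme of the first steps of lysine breakdown, was at 11.63, 11.45, 10.85, 10.01 and 10.58 in wild type and at 14.81, 14.05, 13.9, 14.1 and 13.93 in Falcor-/-. The groups were separated by more than 2 log2 units, and the mean difference was 3.25 (SE 0.49, 9.52-fold, adjusted p = 0.00182). In the double-heterozygous libraries Aass stood at 11.4, 14.18, 11.34 and 14.11, so replicates 16 and 18 were as high as Falcor-/- and replicates 15 and 17 lay within the wild-type range. Of the 13 lysine breakdown genes tested, Aass was the 1 that changed (7.69%, against 9.47% of all genes), and the list's median difference was 0.03.

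Amd2, a copy of the S-adenosylmethionine decarboxylase gene of polyamine synthesis, read 5.6, 4.95, 5.39, 5.08 and 5.25 in wild type against 7.41, 7.21, 7.72, 7.44 and 7.33 in Falcor-/-. Its difference was 2.16 (SE 0.26, adjusted p = 0.000209), and reads shared with the near-identical Amd1 make the value uncertain. Its mean was under the filter of 6 in wild type (5.26), Foxa2+/- (5.56) and double-heterozygous libraries (5.89). Amd2 was therefore tested only through its Falcor-/- mean of 7.42, so its place among the leading genes depends on the group where it is high. It also passed with no low-level filter. Bfsp1, a beaded filament protein known from the eye lens, was at 7.51, 6.47, 7.06, 7.08 and 7.86 in wild type and at 9.1, 9.22, 9.44, 8.75 and 9.49 in Falcor-/-, a difference of 2.0 (SE 0.24, adjusted p = 0.000209). Both genes were higher in all 5 Falcor-/- libraries than in any wild-type library.

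Sdad1, a nucleolar protein of large ribosomal subunit assembly, went from 11.12, 11.21, 11.29, 11.4 and 11.43 in wild type to 12.91, 13.03, 12.32, 12.61 and 12.73 in Falcor-/-, a rise of 1.43 (SE 0.17, adjusted p = 0.000209). F2rl2, the thrombin receptor PAR3, rose by 1.23 (SE 0.15), from a wild-type range of 8.44 to 8.91 to 9.74 to 10.13. Dusp9, a phosphatase of MAP kinases, rose by 1.12 (SE 0.17), and the zinc finger gene Zfp605 by 1.2 (SE 0.14). Aph1c, a subunit of the gamma-secretase that cuts Notch receptors, was between 10.38 and 11.15 in wild type and between 11.52 and 11.84 in Falcor-/-, a rise of 0.93 (SE 0.13). Smaller rises were seen for the transporter Mfsd7a (0.83, SE 0.12), the aldehyde dehydrogenase family member Aldh16a1 (0.82, SE 0.09), the non-coding Epb41l4aos (0.80, SE 0.13) and the ribosomal protein gene Rps24 (0.73, SE 0.12). Since the strand setting is not given, reads of Epb41l4aos and of its neighbour on the opposite strand cannot be told apart.

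Among the falls, Rbpj encodes the DNA-binding protein through which Notch receptors act on their targets. It was at 12.95, 12.98, 12.99, 12.69 and 13.16 in wild type and at 12.15, 12.27, 11.92, 12.17 and 12.15 in Falcor-/-. The Falcor-/- libraries spread little, and the difference was -0.82 (SE 0.10, 1.77-fold lower, adjusted p = 0.000209). Coro2b, an actin-binding coronin, had the largest fall of the 12, from 11.78, 12.1, 11.48, 11.69 and 11.89 to 10.38, 10.25, 9.89, 10.73 and 11.08, a difference of -1.32 (SE 0.21, adjusted p = 0.0034).

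Osmr, the receptor chain for oncostatin M, was at 12.31, 12.49, 12.55, 12.29 and 12.18 in wild type and at 10.99, 11.76, 11.81, 11.37 and 11.13 in Falcor-/- (-0.96, SE 0.16, adjusted p = 0.0052). Pkd2, the polycystin-2 calcium channel of primary cilia, fell by 1.04 (SE 0.15), from between 12.09 and 12.94 to between 11.15 and 11.84. Further signalling genes among the falls were Rasgrp1, an activator of Ras (-1.20, SE 0.17), Prkce, the epsilon form of protein kinase C (-0.59, SE 0.10), and Tril, a helper of Toll-like receptor 4 (-0.77, SE 0.12). The remaining ones were the giant cadherin Fat3 (-1.25, SE 0.19), the zinc finger factor Klf12 (-1.28, SE 0.22), the Sin3 histone deacetylase complex member Sap130 (-0.59, SE 0.08), the BTB domain gene Btbd3 (-0.57, SE 0.08) and Pgm3 (-0.55, SE 0.09), which makes a precursor of protein glycosylation.

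The same model was asked whether the leading genes set Falcor-/- apart from the other mutants. These contrasts reuse the Falcor-/- libraries that chose the genes, so a high share is no independent support. Against Foxa2+/-, where 16.7% of all genes passed, 11 of 12 rises and 8 of 12 falls did. Against the double-heterozygous libraries, where 5.15% of all genes passed, 6 rises and 4 falls did, and 10 genes passed in both. Rbpj was lower than in Foxa2+/- by -0.79 (adjusted p = 0.000613) and than in the double-heterozygous libraries by -0.65 (adjusted p = 0.00311). Bfsp1 was not set apart from either (-0.14, adjusted p = 0.702, and -0.31, adjusted p = 0.507), and neither were Btbd3, Tril, Klf12 and Prkce. Of the leading genes, Bfsp1, Btbd3 and Rasgrp1 lie on chromosome 2, as do Falcor and Foxa2. Against wild type, Bfsp1 differed by 2.15 in Foxa2+/- and 2.31 in double-heterozygous libraries, Btbd3 by -0.48 and -0.51, and Rasgrp1 by -0.02 and -0.37. Whether their chromosome bears on these values was not tested.

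**Figure D2:**
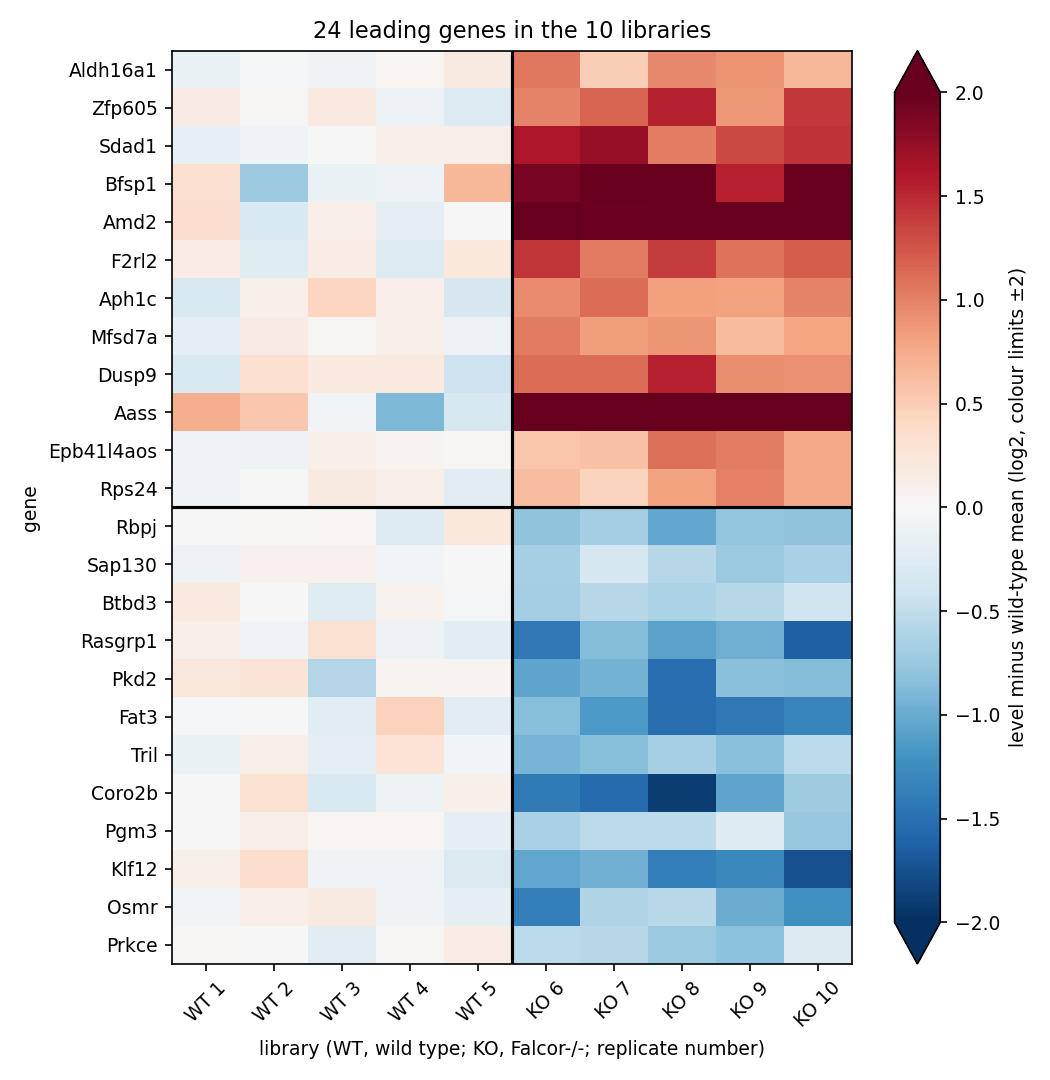
Log2 level minus the gene's wild-type mean (colour, saturating at 2 units either way) of the 24 leading genes (rows) in the 10 libraries (columns; WT, wild type; KO, Falcor-/-). The genes were chosen for groups that do not overlap, so the 12 rises are red and the 12 falls blue in all 5 Falcor-/- libraries. The deepest colours are those of Aass, Amd2 and Bfsp1.

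The direction of a difference ran with the length of the gene. Genes were sorted by exonic length in GENCODE vM21 and cut into 10 equal bins. In the bin of shortest genes (38 to 1467 bases) the median difference was 0.28, and 143 genes were higher and 23 lower. In the bin of longest genes (9648 to 123179 bases) it was -0.20, with 15 higher and 168 lower. The bins between them fell in order, through 0.20, 0.15, 0.09, 0.04, 0.02, -0.03, -0.07 and -0.13. Genes called higher had a median exonic length of 2672 bases and those called lower 6877, against 4218 for all genes.

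The gradient differed between libraries. It was measured as the median departure from the wild-type mean in the shortest bin minus that in the longest. The wild-type libraries stood at -0.15, -0.08, -0.08, 0.07 and 0.25 log2 units and the Falcor-/- libraries at 0.37, 0.01, 0.73, 0.78 and 0.53. Falcor-/- replicate 7 thus lay within the wild-type range and the other 4 above it. The double-heterozygous libraries split into 0.6 and 0.67 (replicates 15 and 16) and -0.06 and 0.01 (replicates 17 and 18), so a steep gradient was not a property of Falcor-/- libraries alone. Differences in RNA quality or library preparation were not tested, since the sources used here give no measure of either.

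As an alternative chosen after seeing the data, a smooth trend on exonic length was taken out of each library before the test. Then 969 of 14739 genes passed (6.57%), 407 higher (2.76%) and 562 lower (3.81%), and 750 of them were among the 1444. The share of calls that were higher went from 55.2% to 42.0%. Removal of such a trend also takes out any real change that runs with length, so values of both kinds are given for the lists whose counts moved most, and the plot of list medians shows both for every list.

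**Figure D3:**
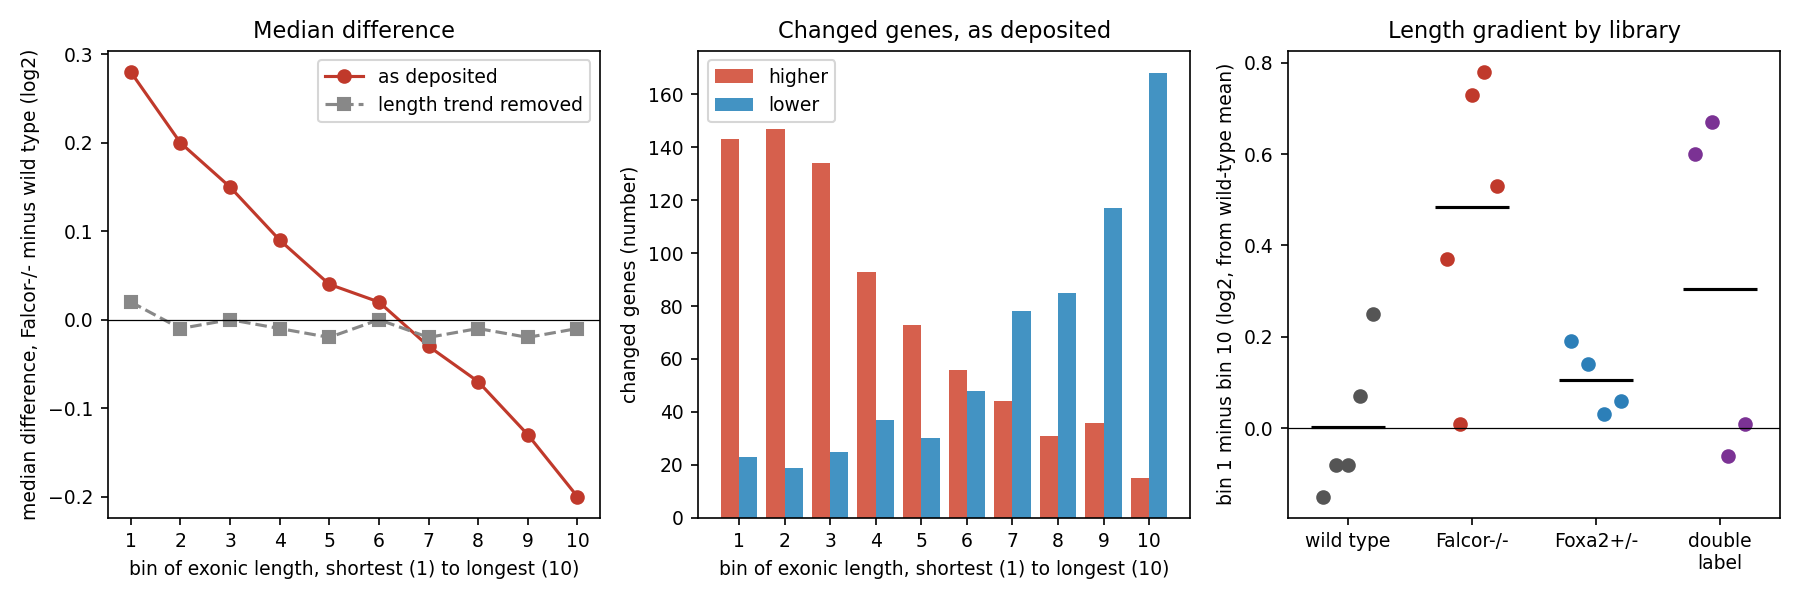
Left, median difference between Falcor-/- and wild type (log2) in 10 bins of exonic length, as deposited and with the length trend removed; middle, number of genes called higher and lower per bin as deposited; right, the short-minus-long gradient in each library (points; bars are means). The median falls from 0.28 to -0.20 across the bins as deposited, and 4 of 5 Falcor-/- libraries and 2 of 4 double-heterozygous libraries stand above the wild-type range.

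Ribosomal proteins build the small and large subunits of the ribosome. Of 79 tested, 43 passed as higher (54.4%, against 5.23% of all genes) and 0 as lower. These were 24 of 33 of the small subunit (median difference 0.35) and 19 of 46 of the large (0.33). The mean level of the 79 genes was 14.03, 13.97, 14.25, 14.25 and 14.27 in wild type and 14.43, 14.30, 14.61, 14.71 and 14.46 in Falcor-/-. All 5 Falcor-/- libraries were above all wild-type libraries, replicate 7 by the least. These are short genes (median exonic length 1781 bases). After removal of the length trend, where 2.76% of all genes were higher, 13 of the 79 passed as higher and 0 as lower. The medians were then 0.14 for both subunits. The count of 43 went down to 4 without wild-type replicate 1 and up to 68 without Falcor-/- replicate 7.

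Rps24 was at 14.22, 14.29, 14.47, 14.43 and 14.08 in wild type and at 14.91, 14.74, 15.1, 15.3 and 15.06 in Falcor-/-, a difference of 0.73 that was 0.77 after the length trend was removed. Rpsa rose by 0.52 (0.42 without the trend, adjusted p = 0.027), Rpl15 by 0.39 (0.23, adjusted p = 0.0122) and Rpl35 by 0.47 (0.23, adjusted p = 0.0176). Rpl4 rose by 0.32 and did not pass without the trend (0.13, adjusted p = 0.156). Ribosomal protein genes have many near-identical pseudogenes, so their values are uncertain where reads were split between copies.

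Oxidative phosphorylation subunits, which make the respiratory chain and ATP synthase, had a median difference of 0.32 with 77 of 78 above wild type, and 10 passed as higher (12.8%). With the trend removed the median was 0.10 and 1 passed, and the count ran from 0 without Falcor-/- replicate 8 to 63 without replicate 7. Examples were Ndufa6 (0.45, then 0.25 without the trend), Atp5c1 (0.31, then 0.12) and Uqcrfs1 (0.37, then 0.13), of which Ndufa6 passed both times. Mitochondrial ribosomal proteins gave 5 of 75 higher (6.67%, median 0.22; 1 without the trend, median 0.09), among them Mrpl48 (0.40), Mrps6 (0.44) and Mrps27 (0.38). Constitutive proteasome subunits gave 2 of 34 higher, Psmd8 (0.32) and Psmd10 (0.31), with a median of 0.25 (0.11 without the trend). The shares called higher among mitochondrial ribosomal proteins and proteasome subunits (5.88%) are near the 5.23% over all genes.

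Translation initiation and elongation factors gave 5 of 47 higher (10.6%, against 5.23% of all genes) and 1 lower (median 0.14). Eif3h (0.36), Eif3e (0.37) and Eef1b2 (0.41) rose, and Eif3e and Eef1b2 also passed without the trend, at 0.43 and 0.26. Of 11 mitochondrially encoded proteins and 32 chaperone genes none passed. Immediate early genes are switched on within minutes of a stimulus such as dissociation. Of 32 tested, 4 were higher (12.5%, against 5.23% of all genes, median 0.28), including Gadd45a (0.58), Ier2 (0.41) and Dusp5 (0.77). Without the length trend none of these passed as higher.

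Notch signalling, in which a ligand on one cell frees a fragment of the receptor on its neighbour, helps to set the balance of secretory and ciliated cells in the airway. Of 35 pathway genes tested, 5 fell and 3 rose (22.9% against 9.47% of all genes), with a median of -0.18. Besides Rbpj, the falls were the receptor Notch1 (-0.64, adjusted p just under the threshold at 0.05), the receptor-cutting protease Adam10 (-0.33, adjusted p = 0.0132) and the coactivators Maml1 (-0.32) and Maml2 (-0.36). Adam10 was at 13.06, 12.98, 12.9, 13.03 and 13.02 in wild type and at 12.71, 12.8, 12.46, 12.67 and 12.71 in Falcor-/-, with no overlap.

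Hes1, a target of Notch that represses other genes, rose: it was at 13.05, 13.07, 13.26, 13.24 and 13.08 in wild type and at 13.59, 13.55, 13.66, 14.16 and 13.62 in Falcor-/- (0.58, SE 0.13, adjusted p = 0.017). Hes6, an opponent of Hes1, rose by 0.58, and the ubiquitin ligase family member Dtx3 by 0.29. The list therefore holds members that fell and members that rose, and the Notch effector Rbpj and the Notch target Hes1 moved in opposite directions. Rbpj, Adam10, Maml1, Hes1 and Hes6 also passed after removal of the length trend, whereas Notch1, Maml2 and Dtx3 did not. Rbpj, Adam10 and Hes1 passed in all 10 runs without 1 library, but Hes6 and Dtx3 passed in 4, Maml1 in 2, and Notch1 and Maml2 in 1. The values of the 5 members beyond Rbpj, Adam10 and Hes1 were looked up after the counts were seen.

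Of 34 epithelial junction genes tested, 5 rose and 2 fell (20.6% against 9.47% of all genes), with a median of -0.09. The 5 that rose encode claudins, the membrane proteins that seal tight junctions. Cldn1 was at 12.16, 12.02, 12.47, 12.09 and 12.39 in wild type and at 13, 12.9, 12.7, 12.81 and 13.24 in Falcor-/-, a rise of 0.70 (SE 0.12, adjusted p = 0.00637). Cldn4 rose by 0.91 (SE 0.19, adjusted p = 0.0141), from between 9.62 and 10.78 to between 10.76 and 11.73. Both passed without the length trend and in all 10 runs without 1 library. Cldn7 (0.41), Cldn8 (0.62) and Cldn23 (0.63) rose as well, but each passed in 3 of the 10 runs and none did without the trend.

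The 2 that fell encode proteins on the inner face of junctions. Ctnnd1, or p120-catenin, went from between 14.51 and 14.81 to between 14.01 and 14.46 (-0.46, adjusted p = 0.0154), and Tjp1, or ZO-1, fell by 0.56 (adjusted p = 0.0275). Both passed with the trend removed, at -0.38 and -0.47.

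The captured material held transcripts of epithelial and of other cells. None of the libraries used here came from uncaptured lung, so these values do not measure enrichment. Epcam stood between 13.75 and 14.32, Cdh1 between 15.36 and 15.82 and Nkx2-1 between 15.29 and 15.75 over the 10 libraries, and none of the 3 passed. Sftpc was at or near 18.73, the highest value in the data, in every library. Transcripts of other cells were also measured: the leukocyte gene Ptprc lay between 13.8 and 14.57, endothelial Pecam1 between 12.44 and 14.43, fibroblast Col1a1 between 10.29 and 12.96 and cardiac muscle Myh6 between 9.89 and 11.39. In such bulk RNA, fewer cells of a type and less RNA per cell cannot be told apart.

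Few markers of the main epithelial types passed, though some list medians lay below the 0.03 of all genes. Of 28 alveolar type 2 genes 2 rose (7.14%, against 5.23% of all genes), and the median was 0 (-0.15 without the length trend). The rises were Ctsh (0.59, adjusted p = 0.0168) and Fabp5 (0.67, adjusted p = 0.0458). Of 24 alveolar type 1 genes 1 fell (4.17%, near the 4.24% over all genes), the basement membrane collagen Col4a4 (-0.81, adjusted p = 0.0275). The median of this list was -0.23, and 20 of the 24 lay below wild type, while 54.0% of all genes lay above it. No gene passed among 29 club cell genes (median -0.01, and -0.20 without the trend), whose product Scgb1a1 differed by 0.04. None passed among 20 mucous cell genes either (median -0.31, with 15 below wild type). Of 32 lung epithelial transcription factors 2 rose (6.25%, near the 5.23% over all genes), Id2 (0.36) and Ovol1 (0.52). Basal cell genes and keratins gave 3 of 21 higher (14.3%, against 5.23% of all genes), with a median of -0.16. These were Krt19 (0.51), Sfn (0.56) and Krt18 (0.31), none of which passed without the length trend. Among 15 genes around Foxa2 and Falcor, besides Falcor, the endothelial gene Thbd fell (-1.19) and Xrn2 rose (0.20).

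Multiciliated cells carry beating cilia, and of 74 axoneme genes 4 were higher (5.41%, near the 5.23% over all genes) and 1 lower, with a median of 0.20. Dnaic1, a dynein intermediate chain, was at 10.77, 10.96, 11.22, 11.16 and 11.08 in wild type and at 12, 11.21, 11.91, 11.77 and 11.55 in Falcor-/-, a rise of 0.65 (SE 0.14, adjusted p = 0.0169). Falcor-/- replicate 7 touched the wild-type range and the other 4 lay above it. Cfap53 rose by 0.76 and AU040972 by 1.19, and replicate 7 was the lowest of the 5 for AU040972 (12.08 against 12.95 to 13.28). All 3 also passed without the length trend. Of 25 regulators of multiciliated cell formation 3 rose (12.0%, against 5.23% of all genes), Ccno (0.72), Cdc20b (1.19) and Cep63 (0.27). Foxj1, the master factor of motile cilia, differed by 0.12 and did not pass (adjusted p = 0.584). Cdc20b did not pass without the length trend. The axoneme calls numbered 1 without wild-type replicate 1 and 30 without Falcor-/- replicate 7.

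Of 16 neuroendocrine genes 2 rose and 1 fell (18.8%, against 9.47% of all genes). Chga, a core protein of secretory granules, rose by 1.39, from 6.28, 6.27, 4.98, 5.55 and 6.66 to 7.35, 7.11, 6.87, 7.72 and 7.63 (SE 0.34, adjusted p = 0.0244). Ddc, which makes amines such as serotonin, rose by 0.82 (adjusted p = 0.0319), and the stretch channel Piezo2 fell by 0.96 (adjusted p = 0.0451). Without the length trend Chga and Ddc passed and Piezo2 did not.

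**Figure D4:**
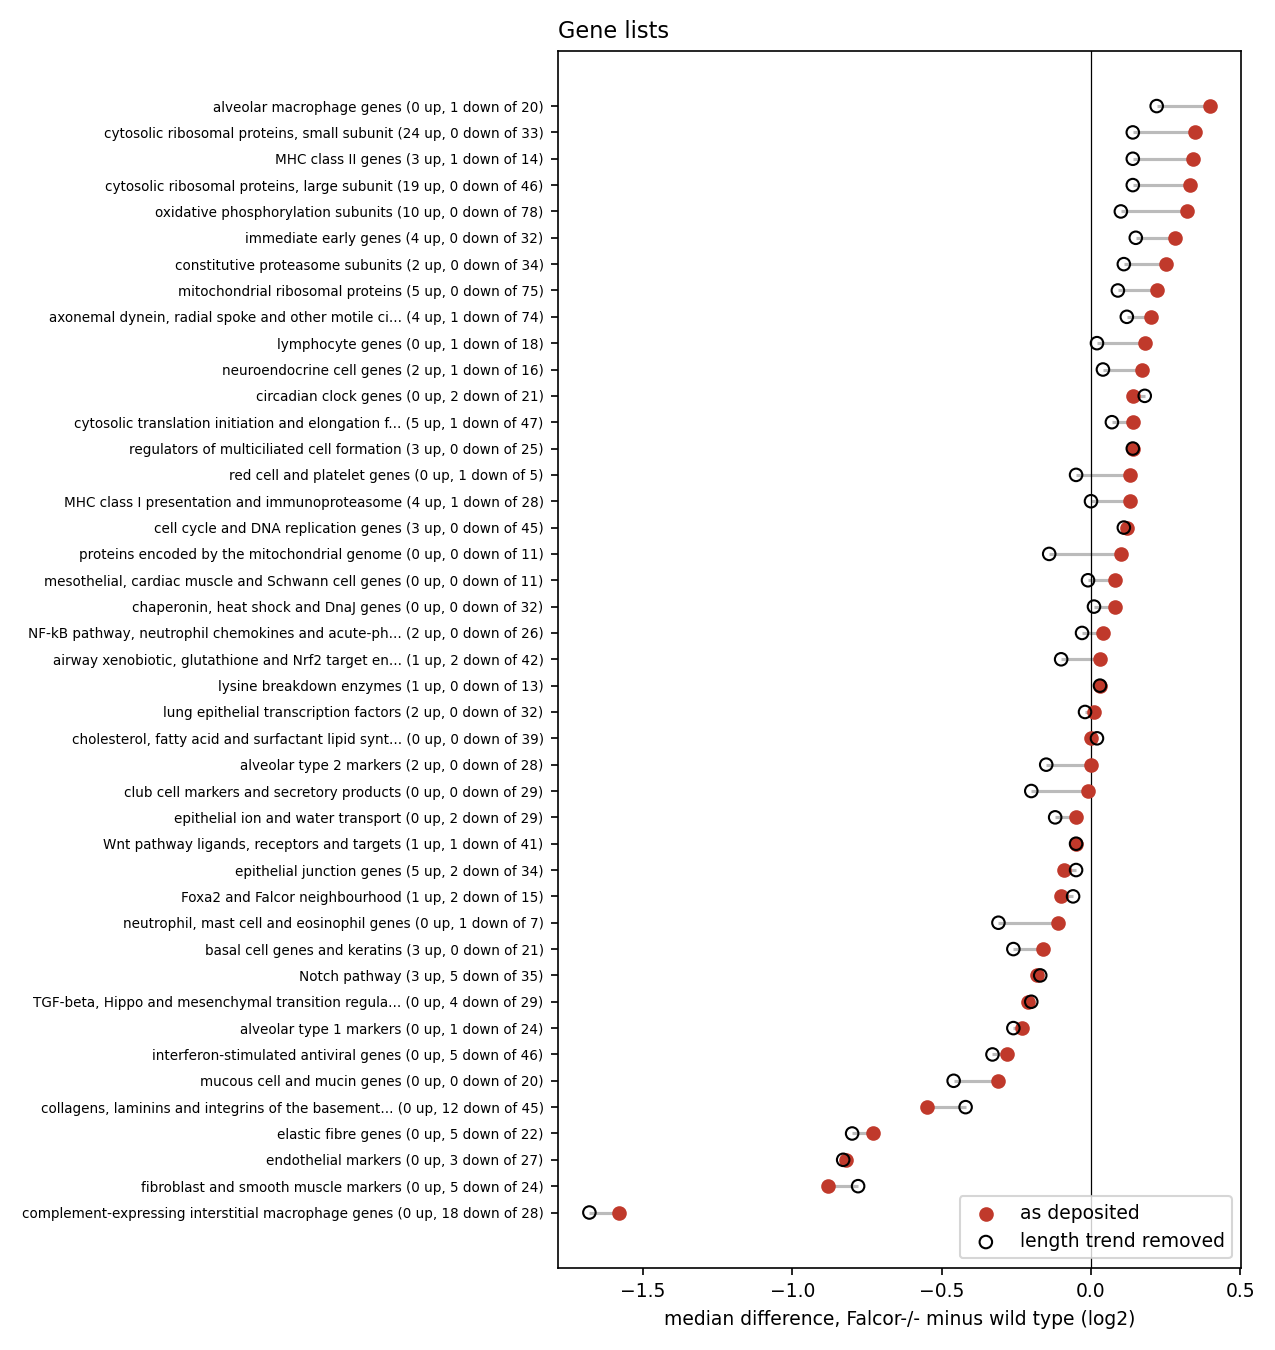
Median difference between Falcor-/- and wild type (horizontal axis, log2) of each of 43 gene lists (rows), as deposited (filled) and with the length trend removed (open); row labels give the genes called higher and lower among those tested. Interstitial macrophage genes lie farthest to the left at -1.58, while the ribosomal protein medians of 0.35 and 0.33 move to 0.14 when the trend is removed.

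The largest group of falls was in genes of interstitial macrophages, the tissue-resident macrophages that express complement C1q. Of 28 tested, 18 were lower (64.3%, against 4.24% of all genes) and none higher, with a median of -1.58, and 18 were lower after removal of the length trend (median -1.68). The list mean was 12.37, 12.02, 12.11, 12.20 and 12.18 in wild type. In Falcor-/- it was 9.74, 11.74, 9.85, 11.95 and 10.05, so replicates 6, 8 and 10 stood about 2 log2 units or more below wild type while replicates 7 and 9 lay just under its range.

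C1qa, a chain of complement C1q, showed the split: 13.97, 13.18, 13.08, 13.35 and 13.92 in wild type and 8.92, 13.15, 9.78, 13.73 and 9.83 in Falcor-/-. Replicates 7 and 9 were inside the wild-type range and the other 3 far below it. The mean difference of -2.42 (SE 0.70, adjusted p = 0.0424) passed in 3 of 10 runs without 1 library, and those of C1qb (-2.63) and C1qc (-2.96) in 4. The exact permutation p was 0.0635 for C1qa and 0.0476 for both C1qb and C1qc. The scavenger receptors Cd163 (-2.01, adjusted p = 0.017) and Stab1 (-1.86, adjusted p = 0.0135) passed in all 10, as did F13a1, the coagulation factor XIII chain (-3.97, adjusted p = 0.0151), and the collagenase Mmp13 (-3.81, adjusted p = 0.0154). F13a1 was between 11.66 and 12.15 in wild type, at 4.81, 5.91 and 7.52 in replicates 6, 8 and 10, and at 10.87 and 10.39 in replicates 7 and 9. The macrophage marker Adgre1 differed by -0.95 (limma adjusted p = 0.0495) and passed in 2 of the 10 runs. Without wild-type replicate 1 the interstitial macrophage list's count fell from 18 to 5.

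Alveolar macrophages live in the airspaces. Of their 20 tested genes 1 fell, the scavenger receptor Msr1 that also stands in the interstitial list, and the median was 0.40. Their list mean spread from 9.37 to 11.22 in wild type and from 9.06 to 11.9 in Falcor-/-, and Marco ranged from 7.12 to 12.57 within the Falcor-/- libraries. The general leukocyte gene Ptprc did not pass (-0.04, adjusted p = 0.864). Of 18 lymphocyte genes 1 fell (Cd4, -0.70), and Cd79a of B cells differed by -0.17. Of 7 granulocyte genes 1 fell, the gelatinase Mmp9 (-2.34, adjusted p = 0.0124), and it was lowest in the same replicates 6, 8 and 10. Pf4 (-1.48) was the 1 of 5 red cell and platelet genes that fell and is also a member of the interstitial macrophage list.

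For endothelial genes, all 27 tested lay below wild type on average (median -0.82) and 3 passed (11.1%, against 4.24% of all genes called lower). These were Thbd, Lyve1 (-2.24, adjusted p = 0.0139) and Ptprb (-1.26, adjusted p = 0.031). The list mean was 12.53, 12.76, 11.66, 12.82 and 12.99 in wild type and 11.81, 11.38, 10.98, 11.66 and 12.80 in Falcor-/-. For the endothelial list, Falcor-/- replicates 7 and 8 thus lay below every wild-type library. Replicates 6 and 9 lay below the wild-type libraries other than replicate 3, which was as low as they were. Replicate 10 was within the wild-type range. For the macrophage list, replicates 6, 8 and 10 were the low ones. Without replicate 10 the count of falls was 18, and without replicate 6 it was 1. Pecam1 (-0.77, adjusted p = 0.105) and Cdh5 (-0.93, adjusted p = 0.0771) did not pass.

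For fibroblast and smooth muscle genes, the list mean of Falcor-/- replicate 10 was 11.11 against 9.78 to 10.36 in the other 4, and wild-type replicate 3 was the lowest wild-type library at 10.44. Of 24 tested, 5 fell (20.8%, against 4.24% of all genes) and none rose (median -0.88). Col6a2 was at 13.25, 12.92, 12.87, 12.7 and 13.17 in wild type and at 11.92, 11.45, 11.57, 11.33 and 12.49 in Falcor-/- (-1.23, SE 0.23, adjusted p = 0.0082). Pdgfra, a receptor of lung fibroblasts, fell by 1.34 (adjusted p = 0.0234), but Col1a1 (-1.13, adjusted p = 0.189) and Acta2 (-0.05, adjusted p = 0.914) did not pass.

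**Figure D5:**
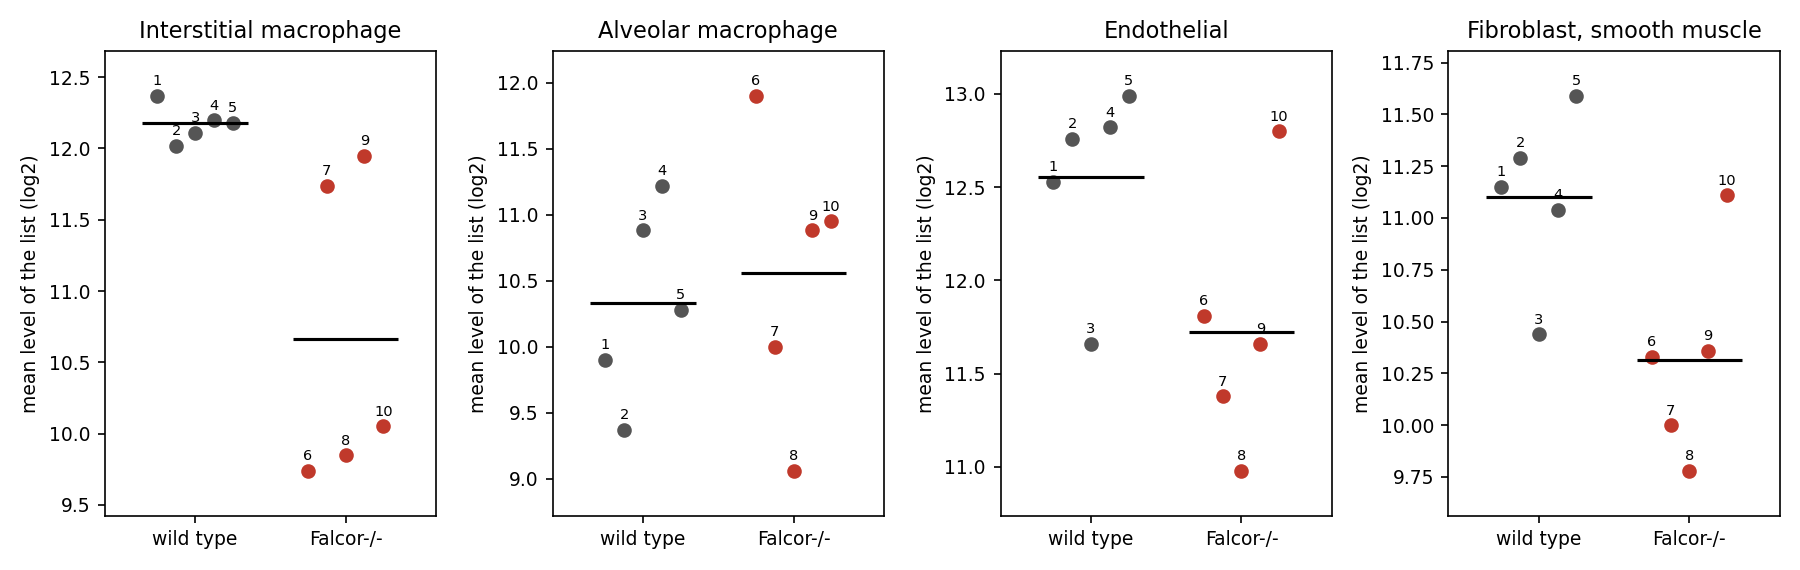
Mean log2 level (vertical axis) of interstitial macrophage, alveolar macrophage, endothelial, and fibroblast and smooth muscle genes in each wild-type and Falcor-/- library; points are labelled by replicate number and bars are means. Replicates 6, 8 and 10 are low for interstitial macrophage genes (9.74 to 10.05), whereas for the endothelial and fibroblast genes replicate 10 is the highest Falcor-/- library (12.80 and 11.11). Replicates 6 to 9 lie below every wild-type library for the fibroblast genes, and replicates 7 and 8 for the endothelial genes.

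Of 45 collagens, laminins and integrins of the basement membrane and stroma 12 fell and none rose (median -0.55). The 12 are 26.7%, against 4.24% of all genes. After removal of the length trend, where 3.81% of all genes were lower, 7 fell (median -0.42). The median exonic length of the 45 genes was 7833 bases. Besides Col6a1 (-1.13) and Col6a2, Lama2, a laminin chain of muscle and vessel basement membranes, was lower: 10.25, 10.52, 9.13, 9.91 and 10.34 in wild type against 8.36, 8.54, 7.83, 8.44 and 9.45 (-1.51, SE 0.30, adjusted p = 0.0119). Of these 45 genes 9 are also in the fibroblast list.

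Elastic fibre genes gave 5 of 22 lower (22.7%, against 4.24% of all genes) and none higher (median -0.73). Without the length trend, where 3.81% of all genes were lower, 2 of the 22 were lower (median -0.80). Eln, the gene for elastin, was at 12.83, 12.58, 11.97, 13.55 and 12.71 in wild type and at 11.1, 10.23, 10.65, 11.28 and 11.95 in Falcor-/-, with replicate 10 just under the lowest wild-type library (-1.69, SE 0.33, adjusted p = 0.0107). Lox, which cross-links elastin and collagen, fell by 1.64 (adjusted p = 0.0139), and the microfibril gene Fbn1 by 1.55 (adjusted p = 0.0333). How far the endothelial and fibroblast levels bear on the matrix genes was not tested. With the endothelial mean as a covariate none of the 45 and none of the 22 genes passed. In that fit only 121 of all 15249 genes passed, so few calls are left for any list. The covariate itself also differed between the genotypes (mean 12.55 in wild type and 11.73 in Falcor-/-). Of 29 regulators of TGF-beta, Hippo and mesenchymal transition 4 fell (13.8%, against 4.24% of all genes) and 0 rose. Among the falls were Lats2 (-0.47), Tgfbr3 (-1.16) and Zeb2 (-1.09). Tgfbr3 was highest of the Falcor-/- libraries in replicate 10, at 11.03 against 9.33 to 10.11.

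Of 28 genes of MHC class I presentation, which shows peptides from inside the cell, 4 rose and 1 fell (17.9%, against 9.47% of all genes). The median was 0.13, and 0.00 without the length trend. The peptide transporter gene Tap1 was at 12.26, 12.18, 12.58, 12.54 and 12.66 in wild type and at 13.46, 13.14, 12.98, 12.91 and 13.17 in Falcor-/- (0.69, SE 0.12, adjusted p = 0.0052). Its partner Tap2 rose by 0.44 (adjusted p = 0.0228). The fall was H2-Q1, at 10.21, 10.15, 9.28, 9.55 and 11.02 in wild type and 4.33, 7.86, 5.09, 4.73 and 7.96 in Falcor-/- (-4.05, SE 0.81, adjusted p = 0.0119).

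Of 14 MHC class II genes 3 rose and 1 fell (28.6%, against 9.47% of all genes). The median was 0.34, and 0.14 without the length trend. H2-DMa (0.54, adjusted p = 0.0169) and H2-Oa (0.98, adjusted p = 0.0182), which govern peptide loading of class II molecules, rose. H2-Ea-ps, the class II gene annotated as a pseudogene, was at 15.24, 15.48, 12.62, 8.59 and 15.53 in wild type and between 5.63 and 7.68 in Falcor-/- (-6.91, SE 1.55, adjusted p = 0.0181). The wild-type libraries thus spread over nearly 7 log2 units, with replicates 3 and 4 below the other 3. H2 genes are near-identical copies that differ between strains, so their counts are uncertain, and the strain of each library was not given.

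Interferon-stimulated antiviral genes had a median of -0.28, with 5 of 46 lower (10.9%, against 4.24% of all genes) and none higher. Oas2, a sensor of double-stranded RNA, was at 9.15, 9.42, 9.54, 9.95 and 9.29 in wild type and at 7.85, 8.43, 7.12, 7.38 and 7.63 in Falcor-/- (-1.79, SE 0.31, adjusted p = 0.00573). Ddx58, the RNA sensor RIG-I, fell by 0.36 (adjusted p = 0.0169) and Gbp7 by 0.94 (adjusted p = 0.0261). Against the double-heterozygous libraries Oas2 did not differ beyond the spread (-0.17, adjusted p = 0.803). After removal of the length trend, where 3.81% of all genes were lower, 8 of the 46 genes of the list were lower.

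Clock genes included 2 falls of 21 (9.52%, against 4.24% of all genes) and no rises. Arntl, which encodes the activator BMAL1, was at 10.14, 10.09, 10.91, 11.47 and 10.28 in wild type and at 9.81, 9.44, 9.5, 9.91 and 9.15 in Falcor-/- (-1.02, SE 0.27, adjusted p = 0.031), and its partner Clock fell by 0.52 (adjusted p = 0.0391). Dbp, an output gene whose level swings over the day and which was looked up after these values were seen, was at 13.17, 12.92, 11.63, 10.03 and 12.75 in wild type and at 13.61, 13.58, 14.01, 13.18 and 13.5 in Falcor-/- (1.48, adjusted p = 0.0574). Wild-type replicates 3 and 4 had the highest Arntl and the lowest Dbp. The hour at which tissue was taken was not stated, and its part in these values was not tested.

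The remaining lists gave few calls. Over all genes 9.47% changed, 5.23% higher and 4.24% lower. The shares changed were 7.14% of xenobiotic and glutathione enzymes, 6.9% of ion and water transport genes and 4.88% of Wnt pathway genes. They were 6.67% of cell cycle genes and 7.69% of NF-kB and chemokine genes. Of 42 xenobiotic and glutathione enzymes, Gstp1 rose (0.66) while Gclc, which starts glutathione synthesis (-0.49), and Cyp1a1, an enzyme induced through the aryl hydrocarbon receptor (-2.06, adjusted p = 0.0285), fell. Cyp1a1 ranged from 8.54 to 9.77 in wild type and from 5.72 to 8.66 in Falcor-/-. Of 29 ion and water transport genes 2 fell, the chloride cotransporter Slc12a2 (-0.41) and the water channel Aqp4 (-0.68). Aqp4 lay between 11.31 and 11.38 in every wild-type library and between 10.02 and 11.07 in Falcor-/-, yet passed in 1 of 10 runs without 1 library. Of 41 Wnt pathway genes the coreceptor Lrp6 fell (-0.37) and the ligand Wnt11 rose (0.44). Of 45 cell cycle genes 3 rose: Pcna (0.40), Ccne1 (0.75) and Rrm2 (0.47), none of them with the length trend removed. Of 26 NF-kB and chemokine genes 2 rose, Nfkbib (0.36) and Il1a (1.28). None of 39 lipid synthesis genes (median 0.00) and none of 11 mesothelial, cardiac muscle and Schwann cell genes passed.

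Many of these list calls lay near the threshold and were lost when a library was left out, with fewer libraries in the fit. Of the named genes that changed, 68 did not pass without wild-type replicate 1, 60 without wild-type replicate 2, 59 without Falcor-/- replicate 8, 52 without replicate 9, 45 without replicate 6 and 43 without wild-type replicate 4. Each of the 124 passed without Falcor-/- replicate 7. Psmd10 kept a difference of 0.28 to 0.36 over the 10 runs, Krt18 of 0.24 to 0.35 and Clock of -0.60 to -0.46. In 1 of the 10 runs passed Aqp4, Krt18, Maml2, Notch1 and Psmd10. In 2 passed Adgre1, Ccne1, Cep63, Clock, Dusp5, Ier2, Maml1, Mrps27, Mrps6, Rrm2, Sfn, Slc12a2, Uqcrfs1 and Xrn2. Fabp5, Il1a, Krt19, Mrpl48, Ovol1, Piezo2, Wnt11 and Cdc20b passed in 3, and Col4a4, Cyp1a1, Ddc, Fbn1, Ndufa6, Ptprb, Thbd and Tjp1 in 4. Besides the genes already given with their values, those that did not pass with the length trend removed were Clock, Fabp5, Id2, Ovol1, Eif3h, Mrps6, Mrps27, Psmd10, Xrn2, Ptprb, Fbn1, Lrp6, Wnt11, Slc12a2, Aqp4, Gstp1 and Il1a. Tap1, Oas2, Cldn1, Cldn4, Lats2, Eln, Lox, Lama2, Lyve1, Col6a2, H2-Oa, H2-Q1, Ddx58 and Nfkbib passed in all 10 runs and with the trend removed.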

How the data were processed

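The authors deposited 1 log2 expression level per Ensembl gene for each of 18 libraries (15544 genes). Per the submitters' processing notes, STAR, limma and the mm9 genome were used; versions, read counter, annotation and strand setting were not stated. Values run from 1 to 18.73 and, over the top 90% of ranks, libraries differ by at most 0.0512 at the same rank, which shows quantile normalization. Depth cannot be recovered, a shift shared by most genes would be hidden, and levels are not compared between genes.

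Here, 15249 genes with a mean of 6 or more were fitted with limma 3.58.1 (R 4.3.3): 1 mean per genotype over all 18 libraries, trended empirical Bayes, Falcor-/- minus wild type, 2-sided, Benjamini-Hochberg adjusted over all genes tested, threshold 0.05. The other 295 were left out. A separate gene name reference gave symbols to 14994 IDs, and GENCODE vM21 gave exonic lengths. On simulated data of 15249 genes, 64%, 82%, 100% and 100% of genes shifted by 0.5, 1, 2 and 4 were recovered. There were 11 false calls among the genes left unshifted. The simulated noise was independent between genes, without the length gradient or cell content that real libraries share. These figures therefore do not give the rate of false calls in the real libraries.

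The comparison, the 43 gene lists and the tests were chosen with earlier results of these data known. Named genes are Falcor, Foxa2, the 24 leading genes, up to 3 changed genes per list with the smallest p, and cell type markers; others are said to have been looked up later (further Notch and claudin genes, C1qb, C1qc, Cd163, Folr2, Stab1, H2-Q1, H2-Ea-ps, Foxa1, Foxa3, Dbp). List symbols were matched exactly (1331 of 1417). Lists were described by counts and medians, with no set test. The length trend was a lowess fit (span 0.3) on log2 exonic length in each library. Alternatives covered the fit, filter, weights, scaling, covariates and each library left out.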

Additional observations from a re-analysis of the deposited data

Results flagged for a closer look

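Single libraries stood apart within their group of 5 for 13 of 254 gene-by-genotype groups checked by Dixon's gap test at the critical value of 0.71; chance alone gives about 1 in 20. In wild-type replicate 3 the low values were Pkd2 (12.09), Thbd (13.41), Ptprb (13.58) and Fbn1 (10.66), of which Thbd and Ptprb are endothelial genes, and the endothelial list mean was lowest in that library. Wild-type replicate 5 was high for Ndufa6 (12.67) and Hes6 (12.74) and low for Mmp13 (7.98), and wild-type replicate 1 was high for Mmp9 (10.98) and low for Psmd10 (10.61). Among the Falcor-/- libraries, replicate 6 was high for Aass (14.81), replicate 9 was high for Hes1 (14.16), and replicate 7 was high for Xrn2 (13.28) and low for AU040972 (12.08).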

How the results depend on the processing

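No paired analysis was possible because the wild-type and Falcor-/- libraries share no replicate numbers. The 1444 changed genes became 483 with the 2 genotypes fitted alone (278 higher, 205 lower), 3446 with library weights (1816 higher, 1630 lower), 121 with the endothelial mean as covariate (64 higher, 57 lower) and 9 with the interstitial macrophage mean as covariate (6 higher, 3 lower). The number higher was 407 with the length trend removed. The 286 genes with at least 1 log2 unit became 164 with the 2 genotypes alone, 178 with a mean of 8 or more, 54 with the endothelial and 7 with the macrophage covariate. Leaving out 1 library gave 354 to 3926 changed genes, 212 to 2126 higher, 142 to 1800 lower and 133 to 432 with at least 1 log2 unit. Foxa2 passed with library weights (-0.27) and with the length trend removed (-0.39), and in neither case was the cause tested. With the macrophage mean as covariate, C1qa (0.52), C1qb (0.35), C1qc (0.36) and Folr2 (0.04) changed sign without passing; these genes are part of that mean. Of 124 named changed genes, 56 no longer passed with the 2 genotypes alone, 93 with the endothelial covariate, 38 with the length trend removed, and all 124 with the macrophage covariate. Falcor passed under every alternative run (-4.24 to -3.12). Depth is unknown and limits all of these values by an amount that cannot be given.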
